A study of Mus musculus with 12 samples.

Results

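Back skin epithelium of TβRII-Het mice was compared between set 2 and set 1, over 3 arrays of set 2 and 3 arrays of set 1. These 6 arrays were all the TβRII-Het arrays among the 12 of the series, and they pair by fraction into hair germ, bulge and total keratinocytes. TβRII is the type II TGF-beta receptor, which Tgfbr2 encodes, and Het is the genotype that the labels set beside the knockout, cKO. All mice were female, 72 to 74 days old and of a strain mix of C57BL/6 with CD1. They were untreated, and their hair cycle was passing for the second time from rest (telogen) to growth (anagen). In set 2 the labels call the hair germ and bulge cells activated, and in set 1 quiescent, while total keratinocytes carry no such state. Cells of both sets were sorted by the Rosa26-YFP reporter, P-cadherin and CD34. Each fraction of each set had 1 array. The labels give neither the driver of the recombinase nor the number of mice behind an array, nor do they say whether 1 group of mice supplied all fractions of a set. State and set coincide, so they cannot be told apart, and every error below measures the spread between fractions and not between mice.

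A hair follicle cycles through rest, growth and regression. Stem cells lie in the bulge, and the hair germ is the small cluster of cells below it, next to the dermal papilla, that divides first when growth starts. Its progeny form the growing bulb, whose cells mature into the inner root sheath, a moulding layer with keratins and trichohyalin of its own, and into the shaft, which is built of hair keratins and keratin-associated proteins. Signals of the Wnt and Hedgehog families favour growth, and BMP signals hold the bulge at rest and later take part in shaft maturation.

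The sort markers were those of the labelled gates. Cd34, by which bulge cells were sorted, had log2 signals of 7.65 in hair germ, 14.79 in bulge and 10.67 in total keratinocytes of set 2, against 8.69, 14.60 and 11.30 in set 1. Cdh3, which encodes P-cadherin, had 10.61, 9.10 and 10.07 in set 2, against 9.42, 8.60 and 9.33 in set 1 in the same order, so that in set 1 the hair germ lay barely above total keratinocytes. Tgfbr2 had 10.35, 11.92 and 11.68 in set 2, against 11.48, 12.39 and 11.96 in set 1, a mean difference of -0.63 (SE 0.22, adjusted p = 0.173 with limma). Its signal was lower in set 2 in each fraction, but the difference did not pass the threshold of 0.05.

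The arrays of the sets differed in more than single genes. The median signal was between 63.9 and 79.6 in set 2 and between 81.1 and 98.8 in set 1, and the 18S rRNA control rows averaged between 14.44 and 14.90 (log2) in set 2 and between 11.85 and 13.82 in set 1. The largest gaps were in hair germ, with 63.9 against 98.8 for the median signal and 14.44 against 11.85 for 18S. The ratio of 3′ to 5′ Gapdh signal, a measure of RNA integrity, was between 1.34 and 2.05 in set 2 and between 1.72 and 2.14 in set 1. The same ratio for beta-actin was higher, between 3.67 and 6.1 in set 2 and between 3.97 and 7.94 in set 1. The control row named for a B2 repeat with the prefix MURINE had signals between 43946 and 62520 in set 2 and between 2544 and 4243 in set 1, while the MUR row of that repeat had between 774 and 1014 in set 2 and between 41346 and 63882 in set 1. The part of these differences in the results below was not tested. Over all genes, hair germ of set 2 and set 1 correlated at 0.942, bulge at 0.965 and total keratinocytes at 0.973, as a description of the array pairs.

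The first question was what the 3 fractions shared. The genes that rose in set 2 included the inner root sheath keratin genes Krt25 and Krt28, the gap junction gene Gjb2 and 4 genes of mitosis, Cdca5, Mad2l1, Spc25 and Pbk. Those that fell included the MHC class II gene H2-Ea, the cytochrome P450 gene Cyp2g1 and the lipid enzyme genes Far2 and Fa2h. A gene was tested if its signal exceeded the pooled median of all arrays (84.7) on at least 2 of the 6 arrays, and limma was fitted to the log2 signals with fraction as a block. Of 11933 genes, 11 rose, or 0.0922%, and 12 fell, or 0.101%, at an adjusted p under 0.05, and all 23 differed at least 2-fold the same way in each fraction. Among the 23, Lrat, Prr9 and Wfdc18 exceeded the pooled median on Het arrays only in set 2, and H2-Ea and 2310001H17Rik only in set 1. The filter passed them through that set alone, so they had to differ that way, and their calls are a description. Over all genes tested, 2365 (19.8%) were higher and 3160 (26.5%) were lower in set 2 in each fraction. Without adjustment 2605 genes had p under 0.05, of which 1078 were higher and 1527 lower in set 2. The count was 0 without the filter on low signals or with each gene's probe sets averaged. It was 45 without the hair germ pair, 102 without the bulge pair and 1 without the total keratinocytes pair.

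**Figure D1:**
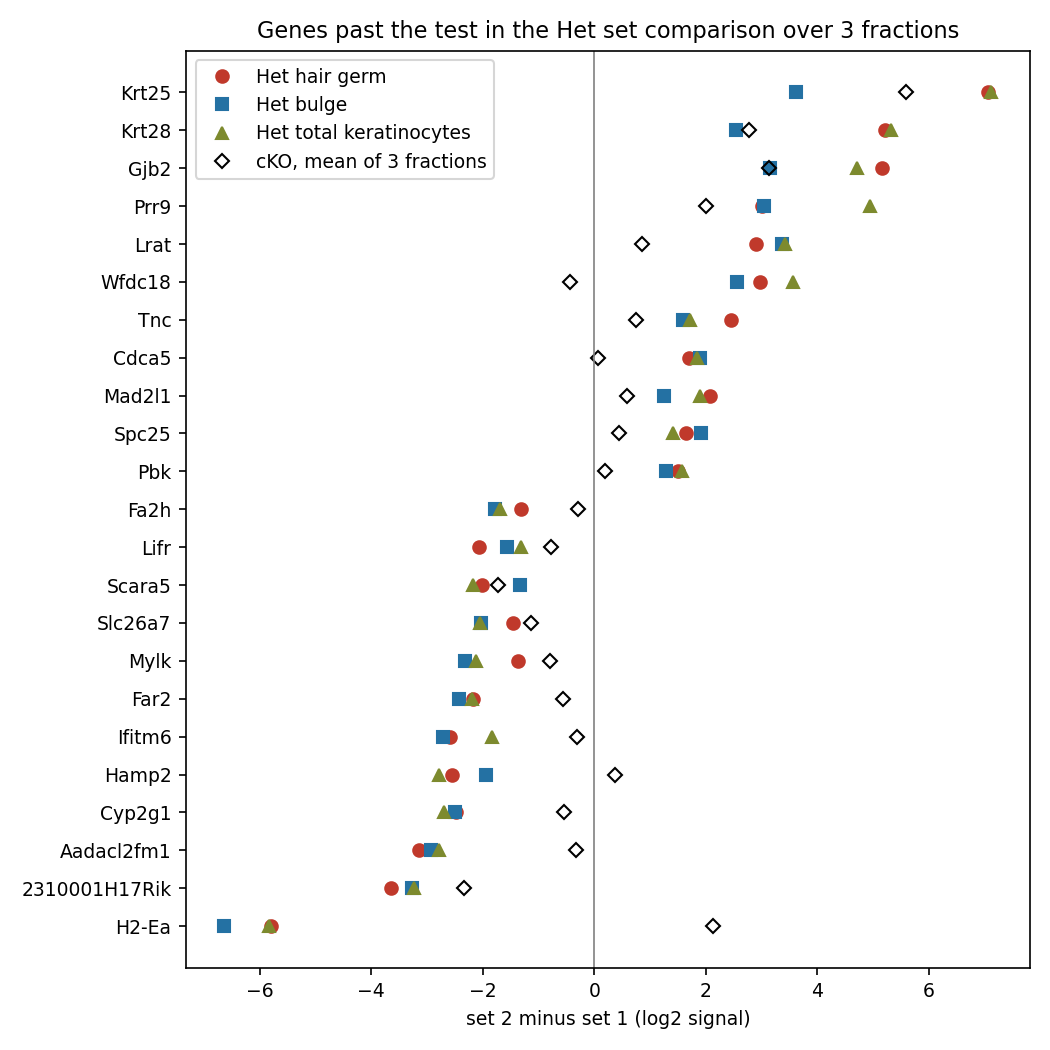
Set 2 minus set 1 (log2 signal) of the 23 genes past the test, with 1 point per fraction of Het and an open diamond for the mean of the cKO fractions. The 3 Het points of each gene lie on the same side of 0, from -6.63 for H2-Ea in bulge to 7.12 for Krt25 in total keratinocytes.

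Inner root sheath keratins led the rises. Krt25 had log2 signals of 13.64 in hair germ, 8.32 in bulge and 12.74 in total keratinocytes of set 2, against 6.58, 4.71 and 5.62 in set 1. The sets did not overlap, and the mean difference was 5.93 (SE 0.65, adjusted p = 0.0465 with limma), or 61.1-fold. Krt28, a type I keratin like Krt25, had 13.42, 8.13 and 12.13 in set 2, against 8.21, 5.59 and 6.80 in set 1, where the set 2 bulge lay just below the set 1 hair germ, and rose by 4.36 (SE 0.52, adjusted p = 0.0475). In both keratins the bulge difference, 3.61 for Krt25 and 2.54 for Krt28, was the smallest of the 3. The 150 bases before the start of 3 genes are shown. Krt25, Krt27 and Krt28 lie near each other on chromosome 11 and were all higher in hair germ and total keratinocytes of set 2. The sequences are from RefSeq (GRCm38.p6), 5′ to 3′, and capitals mark TATAAA, the core of a TATA box.
Krt25, chr11:99322952-99323101, minus strand: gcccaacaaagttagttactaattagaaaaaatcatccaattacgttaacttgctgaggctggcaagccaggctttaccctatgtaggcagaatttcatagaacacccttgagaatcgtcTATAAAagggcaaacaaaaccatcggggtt
Krt27, chr11:99351119-99351268, minus strand: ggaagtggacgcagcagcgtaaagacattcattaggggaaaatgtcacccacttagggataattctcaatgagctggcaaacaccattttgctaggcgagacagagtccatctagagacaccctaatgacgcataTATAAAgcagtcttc
Krt28, chr11:99374904-99375053, minus strand: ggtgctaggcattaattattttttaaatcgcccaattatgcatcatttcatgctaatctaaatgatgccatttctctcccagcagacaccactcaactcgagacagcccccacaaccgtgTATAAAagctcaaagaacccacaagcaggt
Each window held 1 TATAAA, which begins 30 bases before the start in Krt25 and Krt28 and 15 bases before it in Krt27. On either strand, with overlapping matches counted, these letters occur in 7.57% of 32851 such windows and in those of 9 of the 15 genes of the inner root sheath and shaft list that have one.

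Gjb2, a connexin that forms gap junctions and is also a gene of wounded and fast-growing epidermis, had log2 signals of 13.94, 9.87 and 12.57 in hair germ, bulge and total keratinocytes of set 2, against 8.79, 6.71 and 7.86 in set 1. All 3 set 2 arrays lay above all 3 set 1 arrays, and the rise was 4.34 (SE 0.37, adjusted p = 0.0241 with limma), or 20.3-fold. Lrat, the enzyme that esterifies retinol for storage, had 8.85, 9.08 and 7.80 in set 2, against 5.95, 5.72 and 4.37 in set 1, and rose by 3.23 (SE 0.35, adjusted p = 0.0465). The last of these values is the floor of the scale, the pooled 25th percentile, to which lower signals were set. Prr9 rose by 3.67 (SE 0.47), Wfdc18 by 3.03 (SE 0.36) and the matrix protein gene Tnc, tenascin-C, by 1.92 (SE 0.24). For Tnc a second probe set gave only 0.60. Lrat, Prr9 and Wfdc18 passed the filter through set 2 alone, as given above.

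The other rises were genes of mitosis. Cdca5, whose product sororin holds sister chromatids together, had log2 signals of 11.66, 8.88 and 10.86 in hair germ, bulge and total keratinocytes of set 2, against 9.95, 6.98 and 9.03 in set 1. The difference was near equal in the fractions, at 1.70, 1.90 and 1.83, with a mean of 1.81 (SE 0.19, adjusted p = 0.0465 with limma). The spindle checkpoint gene Mad2l1 rose by 1.74 (SE 0.22), the kinetochore gene Spc25 by 1.66 (SE 0.20) and the mitotic kinase gene Pbk by 1.46 (SE 0.18), each at an adjusted p of 0.0475. A second probe set of Spc25 gave a mean of -0.26. In the mitosis list, 24 of 25 genes tested were higher in set 2 in each fraction, 9 of them by at least 2-fold, and 1, Spc25, passed the test. Of all genes tested, 19.8% were higher in each fraction. The median difference of the list was 1.65 in hair germ, 0.76 in bulge and 1.16 in total keratinocytes, beside -0.13, -0.03 and -0.04 over all genes tested. Aurkb, the chromosomal passenger kinase, had 10.70, 7.97 and 9.65 in set 2, against 8.60, 5.43 and 8.31 in set 1 (mean difference 1.99, adjusted p = 0.066). Ube2c, which helps to degrade cyclins, differed by 2.39, 1.17 and 1.96 (adjusted p = 0.0586). Ttk was the gene of the list that was not higher in each fraction, at -0.10 in bulge.

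Of 25 DNA replication genes tested, 20 were higher in set 2 in each fraction, beside 19.8% of all genes tested, and none passed the test, with medians of 1.15 in hair germ, 0.36 in bulge and 0.73 in total keratinocytes. The thymidine kinase gene Tk1 differed by 1.15, 1.71 and 1.10 (adjusted p = 0.0788 with limma) and Rfc4, of the clamp loader, by 1.60, 0.71 and 1.59 (adjusted p = 0.086). Respiratory chain genes differed less but evenly, with 16 of 20 higher in each fraction, beside the same 19.8%. Their medians were 0.22, 0.47 and 0.54, and none passed the test. Mitotic promoters often carry a CCAAT box and, near the start, the cell cycle homology region TTTGAA. The 150 bases before the start of 4 genes are shown with both motifs in capitals, on either strand. All 4 act in mitosis and were higher in set 2 in each fraction. They are examples that hold 1 or both motifs and do not stand for all such genes.
Cdca5, chr19:6084947-6085096, plus strand: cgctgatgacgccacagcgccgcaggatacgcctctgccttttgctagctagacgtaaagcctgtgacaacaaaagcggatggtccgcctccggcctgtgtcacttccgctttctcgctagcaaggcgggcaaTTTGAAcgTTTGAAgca
Spc25, chr2:69206214-69206363, minus strand: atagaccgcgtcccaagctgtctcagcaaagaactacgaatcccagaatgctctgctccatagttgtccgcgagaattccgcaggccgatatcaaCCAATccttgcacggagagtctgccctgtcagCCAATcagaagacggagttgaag
Cdk1, chr10:69352913-69353062, minus strand: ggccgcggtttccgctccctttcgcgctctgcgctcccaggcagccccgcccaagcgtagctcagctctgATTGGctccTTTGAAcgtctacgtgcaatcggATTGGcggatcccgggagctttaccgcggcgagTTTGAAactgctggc
Ube2c, chr2:164769779-164769928, plus strand: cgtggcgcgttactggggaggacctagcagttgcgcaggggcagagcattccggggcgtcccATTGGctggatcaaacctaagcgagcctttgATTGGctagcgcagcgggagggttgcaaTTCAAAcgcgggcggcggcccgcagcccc
Cdca5 held TTTGAA at 2 places and no CCAAT, Spc25 held CCAAT at 2 places and no TTTGAA, and Cdk1 and Ube2c held both. The window of Mad2l1, which also passed the test, held neither motif, nor did those of Birc5, Ndc80, Nuf2 and Nusap1. Counting overlapping matches on either strand, TTTGAA lies in 9.07% and CCAAT in 24.5% of the 32851 windows of this length, and both in 2.24%. Of the 25 mitosis genes measured, 21 had a window, of which 8 held TTTGAA, 17 held CCAAT and 8 held both.

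**Figure D2:**
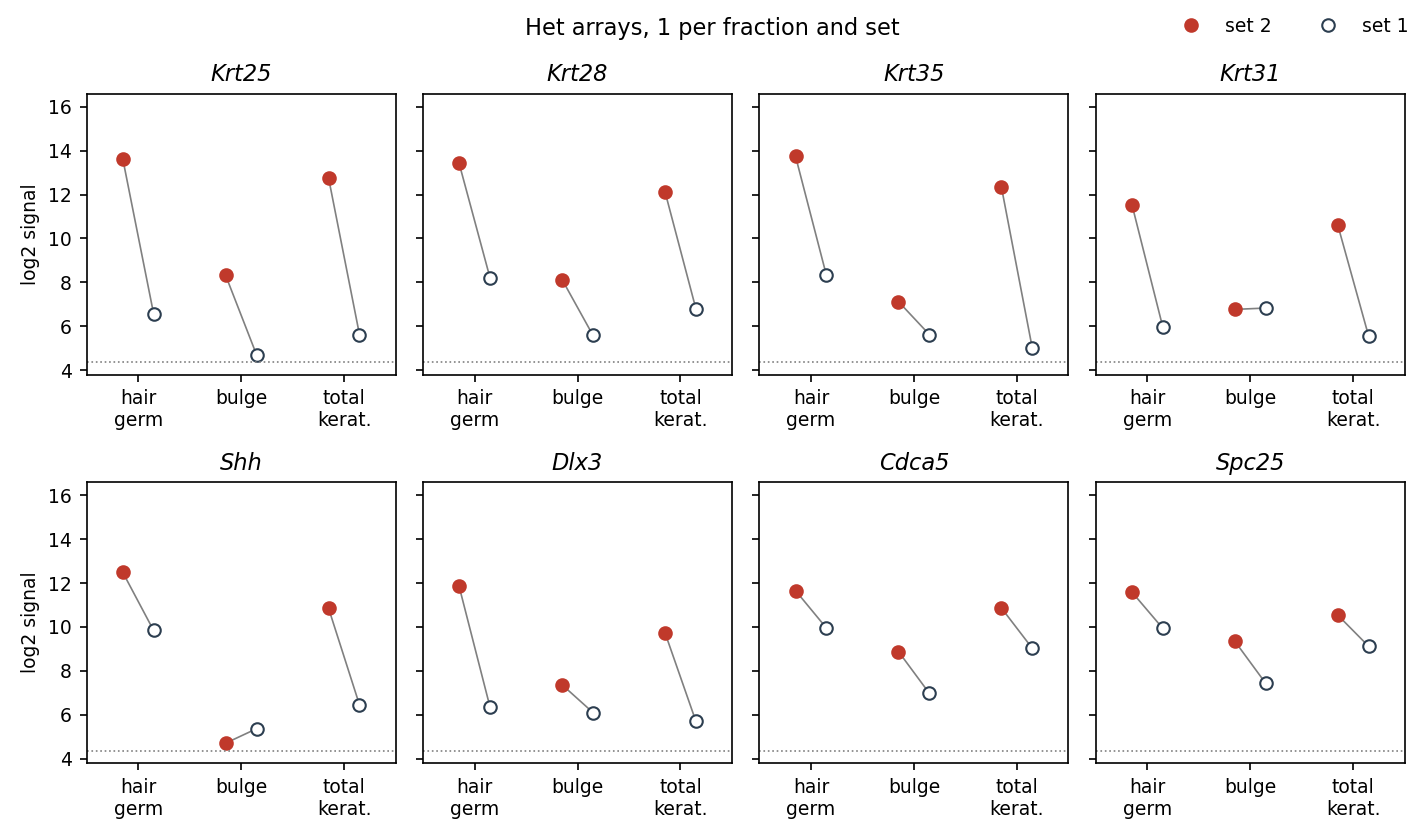
Log2 signal of 8 genes on the 6 Het arrays, with filled points for set 2 and open points for set 1 in each fraction. Lines join the arrays of a pair, and the dotted line is the floor of 4.37. Krt25 and Krt28 lie higher in set 2 in each fraction, Krt31 and Shh in hair germ and total keratinocytes but not in bulge.

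Among the 12 falls, H2-Ea stood apart. H2-Ea, which encodes the alpha chain of the MHC class II molecule I-E, was at the floor of 4.37 on all 3 arrays of set 2, against log2 signals of 10.17 in hair germ, 11.01 in bulge and 10.21 in total keratinocytes of set 1. It was at least 68-fold lower in set 2 (-6.09, SE 0.33, adjusted p = 0.00319 with limma). As given above, it passed the filter through set 1 alone. C57BL/6 mice are known not to make this chain, and the labels give a mixed background for every array. The part of the strain mix in this difference was not tested. A second H2-Ea probe set above the median gave -4.77, and with the mean of its probe sets the difference was -3.47 and no longer passed the test. Other MHC class II genes differed less: Cd74 by -0.97, -0.59 and -1.03 and H2-Ab1 by -1.05, -0.82 and -0.72 in hair germ, bulge and total keratinocytes, and neither passed the test.

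Cyp2g1, a cytochrome P450 gene, had log2 signals of 9.21 in hair germ, 9.93 in bulge and 9.30 in total keratinocytes of set 2, against 11.69, 12.43 and 12 in set 1, and fell by 2.56 (SE 0.18, adjusted p = 0.00859 with limma). All set 2 values lay below all set 1 values, by nearly the same amount in each fraction. Of 2 enzymes of skin lipids, the fatty alcohol enzyme gene Far2 fell by 2.26 (SE 0.21, adjusted p = 0.0301) and the fatty acid hydroxylase gene Fa2h fell by 1.59 (SE 0.20, adjusted p = 0.0475). Hamp2, one of the mouse hepcidin genes, fell by 2.43 (SE 0.24) and Aadacl2fm1 fell by 2.95 (SE 0.28), both at an adjusted p of 0.0301.

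At an adjusted p of 0.0475, 2310001H17Rik fell by 3.38, with 1 of the 3 arrays of set 2 at the floor, and Ifitm6 fell by 2.38. At that p too, Mylk, the myosin light chain kinase gene, fell by 1.94, the anion transporter gene Slc26a7 fell by 1.84, Scara5, a ferritin receptor gene, fell by 1.84 and the cytokine receptor gene Lifr fell by 1.65. Of the 23 genes, 9 had another probe set above the median on a Het array, and for 7 of these all such probe sets had the same sign in each fraction.

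Counts of 2-fold differences showed how unequal the pairs were. With the higher array of a pair above the pooled median, 1049 genes of 11866 were at least 2-fold higher (8.84%) and 2251 lower (19%) in set 2 in hair germ. In bulge, 470 of 12081 were higher (3.89%) and 898 lower (7.43%), and in total keratinocytes 514 of 11365 were higher (4.52%) and 532 lower (4.68%). Of 10857 genes that met the level rule in each pair, 56 were 2-fold higher (0.516%) and 117 were 2-fold lower (1.08%) in all 3 fractions. These are counts from single arrays, with no test. Quantile normalization of the arrays turned the shared split to 86 higher and 57 lower, so the excess of shared lower genes depends on the scaling. In hair germ it gave 1426 higher and 1441 lower, and in total keratinocytes 759 higher and 334 lower.

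Beside those past the test, the shared higher genes with the largest smallest difference were Syt7, Hsd11b2, Krt71, Fhl2, Nek2, Cenpe, S100a3 and Racgap1. Krt71, a type II keratin of the inner root sheath, differed by 4.52 in hair germ, 1.71 in bulge and 4.42 in total keratinocytes. Hsd11b2, which inactivates glucocorticoids, differed by 2.06, 2.05 and 2.56, and Racgap1, a gene of cytokinesis, by 2.06, 1.58 and 1.51. Of these 8 genes, Nek2 and Racgap1 came nearest to the threshold, both at an adjusted p of 0.0586 with limma.

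Hair shaft and inner root sheath genes were higher in set 2 mainly in hair germ and total keratinocytes. The list had median differences of 4.84 in hair germ, 0.56 in bulge and 4.51 in total keratinocytes. Of 17 genes tested, 15, 6 and 15 were at least 2-fold higher, beside 8.84%, 3.89% and 4.52% of genes that met the level rule. The list counts did not apply that rule, which Krt73 failed in bulge. Krt25 and Krt28 were the 2 that passed the test. Krt73 exceeded the pooled median on Het arrays only in hair germ and total keratinocytes of set 2. Such members had to differ there, so these counts and medians are a description. Of the inner root sheath keratins, Krt25, Krt28, Krt71 and Krt73 were 2-fold higher in bulge too and Krt27 was not, at 0.44. Krt73, at 2.01 in bulge, was at the floor in bulge of set 1, and Krt72 lay below the pooled median on all 6 arrays. Krt35, a keratin of the shaft cortex and cuticle, had log2 signals of 13.75, 7.13 and 12.34 in hair germ, bulge and total keratinocytes of set 2, against 8.33, 5.63 and 5.0 in set 1 (adjusted p = 0.091). Krt31, a cortex keratin, had 11.55, 6.77 and 10.60 in set 2, against 5.96, 6.83 and 5.54 in set 1. The bulge values of Krt31 differed by 0.06, while those of the other fractions differed by more than 5. Krt33b was even lower in bulge of set 2, at the floor, against 6.63 in set 1.

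The keratin-associated protein genes, for the matrix proteins of the shaft, are given as values of single genes. This family was grouped by its symbols after the values were seen. Of 38 Krtap genes measured, 13 exceeded the pooled median on some Het array, 8 of them only in hair germ or total keratinocytes of set 2. Those 8 had to differ in these fractions, so no count over the family is read. The other 5, Krtap10-4, Krtap12-1, Krtap13-1, Krtap17-1 and Krtap21-1, had differences of -1.84 to 1.80 in hair germ, 0.55 to 2.38 in bulge and -0.37 to 3.22 in total keratinocytes. Krtap8-1 had log2 signals of 13.55 in hair germ, 4.37 in bulge and 12.29 in total keratinocytes of set 2, against 5.47, 4.37 and 4.37 in set 1, so both bulge arrays were at the floor. Krtap11-1 had 11.88, 4.37 and 10.95 in set 2, against 4.37, 5.71 and 4.37 in set 1. Krtap11-1 was the 1 gene of 12749 (0.00784%) whose set difference in bulge departed from that of the other fractions, at -8.38 (SE 0.84, adjusted p = 0.0295 with limma). Krtap11-1 is 1 of those 8 genes, below the pooled median on both bulge arrays, so its bulge difference had to depart. The call is therefore a description of its values and no support for a bulge pattern. It was lost without the filter on low signals or without a trend. In all, 132 genes were 2-fold higher in hair germ and total keratinocytes and changed by under 0.5 in bulge. Krtap7-1, Krt27, the retinoic acid synthesis gene Aldh1a3 and Gprc5d were among them. Another 93 genes were 2-fold lower in that pattern.

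Of the hair germ and early anagen list, 10 of 16 genes tested were 2-fold higher in hair germ, 1 in bulge and 6 in total keratinocytes. Of genes that met the level rule, 8.84%, 3.89% and 4.52% were, while the list counts did not apply that rule. The 1 gene in bulge was Dlx3, which exceeded the pooled median on Het arrays only in set 2. It had to be higher there, so these counts are a description. The list had medians of 1.34, 0.09 and 0.70, and none of its genes passed the test. Shh, the Hedgehog ligand, had log2 signals of 12.49, 4.71 and 10.85 in hair germ, bulge and total keratinocytes of set 2, against 9.84, 5.37 and 6.45 in set 1. Its bulge signals lay near the floor in both sets. The homeobox gene Dlx3 differed by 5.49, 1.26 and 4.03 (adjusted p = 0.091 with limma), the companion layer keratin gene Krt75 by 6.00, 0.74 and 4.31, and the Wnt effector gene Lef1 by 2.25, -0.83 and 1.65. The 14 Wnt response genes tested had medians of -0.08, -0.54 and -0.39, with 1 higher and 4 lower in each fraction, beside 19.8% and 26.5% of all genes tested. The hair germ sign of this list turned with quantile normalization, to 0.18. The 8 Hedgehog response genes tested had medians of 0.38, -0.07 and -0.05, the last of which was 0.12 with quantile normalization, and neither list had a gene past the test. Of 11 BMP response genes tested, 7 were higher in each fraction, beside 19.8% of all genes tested, and none passed the test. Their medians were 1.31, 0.06 and 0.49. The bulge median was -0.07 with quantile normalization.

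In the cornified envelope list, 8 of 15 genes tested were lower in each fraction and 1 was higher, beside 26.5% and 19.8% of all genes tested, with medians of -1.53 in hair germ, -1.48 in bulge and -0.56 in total keratinocytes, and none passed the test. Of this list, Flg, Hrnr and Lce1m exceeded the pooled median on Het arrays only in set 1. Such members had to be lower in set 2, so these counts and medians are a description. In the suprabasal differentiation list, 7 of 19 genes tested were lower in each fraction, with medians of -1.40, -0.54 and 0.01, and 10 of the 19 were higher in total keratinocytes. The last of these medians was -0.25 with quantile normalization. Lor, the main protein of the cornified envelope, had log2 signals of 8.90, 6.55 and 9.42 in hair germ, bulge and total keratinocytes of set 2, against 10.73, 10.59 and 11.01 in set 1. Each set 2 value lay below all set 1 values (mean difference -2.49, adjusted p = 0.086 with limma). Flg, which encodes filaggrin, was at the floor in hair germ and bulge of set 2 and at 6.03 in total keratinocytes, against 7.18, 7.53 and 7.79 in set 1. Elovl4, which makes very long fatty acids of the barrier, differed by -2.56, -2.73 and -1.22 (adjusted p = 0.0586). Of 12 sebaceous gland genes tested, 7 were lower in each fraction and 1 was higher, with medians of -0.48, -1.61 and -0.67, and Far2 fell. Scd3 differed by -2.28, -1.41 and -3.00, whereas the desaturase gene Fads2 differed by 3.27, 1.05 and 3.76. Fads2 exceeded the pooled median on Het arrays only in set 2, so it had to be higher there. Of 12 genes of the infundibulum and isthmus, the upper follicle, 7 were lower in each fraction, with medians of -1.56, -0.19 and -0.57, and of 13 barrier lipid genes 6 were, with medians of -1.53, -0.37 and -0.34. Abca12 of the barrier lipid list exceeded the pooled median on Het arrays only in hair germ and total keratinocytes of set 1, so it had to be lower there in set 2. All 15 cholesterol synthesis genes tested were higher in hair germ of set 2, 8 of them 2-fold, beside 8.84% of genes that met the level rule. Their medians were 1.20, -0.20 and 0.19, and their 2-fold count did not apply that rule. None of these 3 lists had a gene past the test.

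**Figure D3:**
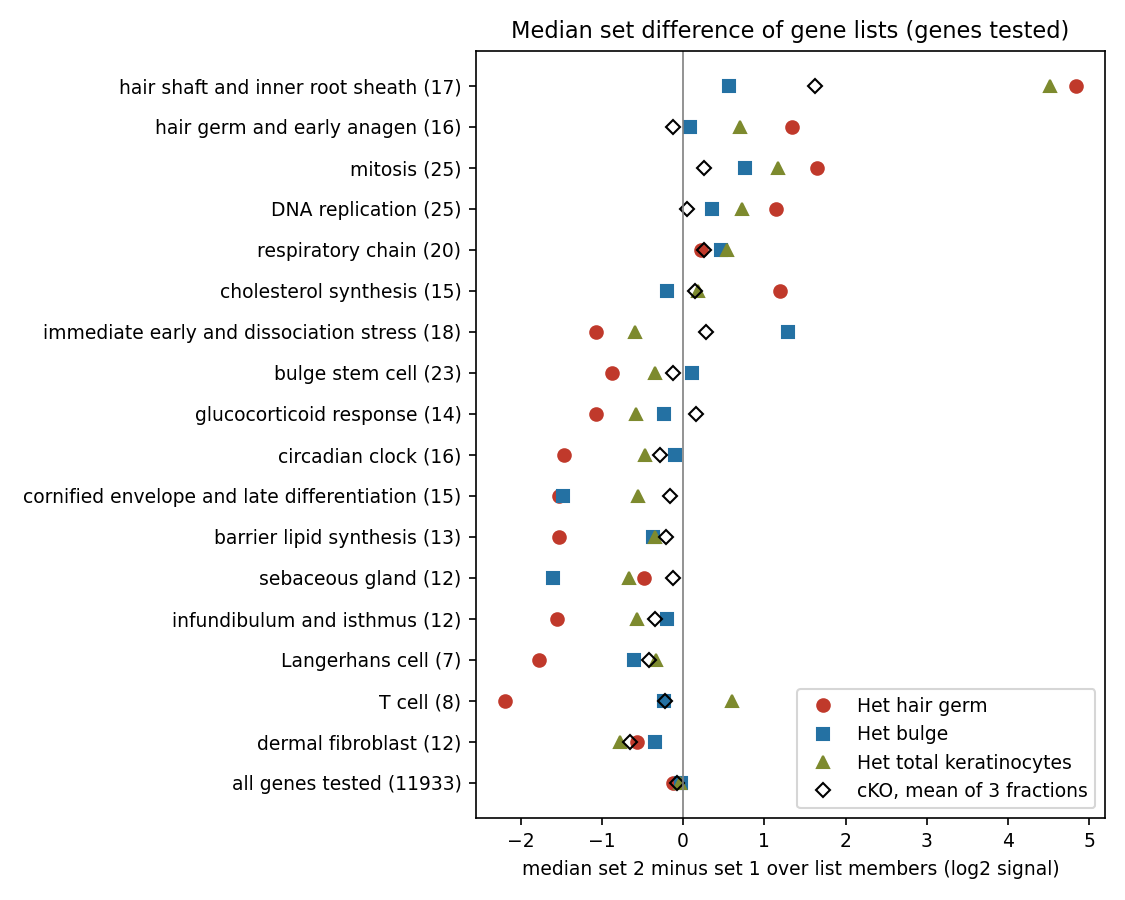
Median set 2 minus set 1 (log2 signal) over the tested members of 17 gene lists and over all genes tested, with 1 point per fraction of Het and an open diamond for the mean of the cKO fractions. Numbers in brackets count the genes tested. Hair shaft genes have medians of 4.84 in hair germ and 4.51 in total keratinocytes but 0.56 in bulge, and immediate early genes 1.29 in bulge but -1.08 in hair germ.

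What was limited to 1 fraction lay mostly in hair germ. With the other pairs under 0.5 on the log2 scale, 255 genes were 2-fold higher (2.15%) and 649 lower (5.47%) in hair germ of set 2 alone. The difference between fractions was then tested for each gene against the mean of the other pairs, with the error from the spread of the cKO arrays, since Het has 1 array per cell. Of 12749 genes, 10 were higher and 56 lower in hair germ (0.518% in all), and 22 of the 56 were among the 649. None of the 10 was among the 255, and 12 of the 66 differed 2-fold in opposite directions between fractions. In quantile-normalized values 18 were higher and 92 lower by the test, and 319 were higher and 465 lower by the 2-fold rule. No gene passed the test in hair germ where the filter on low signals, the trend of the variance or the choice of 1 probe set per gene was dropped. The hair germ pair also had the largest gap in median signal and 18S among the pairs, as given above.

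The 10 higher genes included Egr3, a zinc finger gene induced by growth signals, which had log2 signals of 12.67, 8.96 and 11.41 in hair germ, bulge and total keratinocytes of set 2, against 9.10, 9.88 and 10.66 in set 1. Its hair germ difference exceeded the mean of the others by 3.66 (SE 0.37, adjusted p = 0.0146 with limma). Ppp1r3c, which targets a phosphatase to glycogen, exceeded it by 3.97, the zinc exporter gene Slc30a1 by 3.25, the peptidase gene Dpp4 by 3.94 and the guidance receptor gene Robo1 by 2.57. Krtap11-1 also passed, at 4.88 (adjusted p = 0.0471), but it was higher in total keratinocytes of set 2 as well, by 6.57, and lower only in bulge, at -1.34.

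Trim7 led the lower genes by its own hair germ difference, with log2 signals of 7.25, 8.69 and 10.60 in set 2, against 11.22, 9.33 and 11.40 in set 1 in the same order. Its hair germ difference departed from the mean of the others by -3.25 (SE 0.35, adjusted p = 0.0199 with limma). The matrix protein gene Tgfbi, known as a TGF-beta target, had a hair germ difference of -2.49 and departed by -2.44 (adjusted p = 0.043). The clock gene Arntl2 departed by -3.06, the galectin gene Lgals3 by -2.36, the protease inhibitor gene Spink5 by -2.24 and the nuclear receptor gene Rora by -2.17.

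Genes with the widest differences among the 904 limited to hair germ are given as a description. The higher ones were Sncaip, Ercc2, Tnni1, Ccdc180, Slc6a20a, Swsap1, Ttc9 and Lpgat1, with differences between 2.34 and 3.52. Tnni1 was not tested between fractions, and none of the others passed that test. Sncaip, Tnni1, Ccdc180 and Slc6a20a were at the floor in hair germ of set 1, so their differences are lower bounds. The lower ones were Depp1, Arntl2, Ikbke, Apol7a, Hnmt, Tmie, Cmya5 and Pdzk1ip1, with differences between -3.65 and -3.03, of which Depp1, Arntl2, Ikbke, Hnmt and Pdzk1ip1 passed it. Apol7a, Tmie and Cmya5 were at the floor in hair germ of set 2, and for them too the size is a lower bound.

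In bulge, 69 genes were 2-fold higher (0.571%) and 100 lower (0.828%) with both other pairs under 0.5. Of these, 50 of the 69 and 89 of the 100 were tested between fractions, and none passed. In all, 34 of the 69 and 25 of the 100 lay below the pooled median on all arrays of the other fractions, so that little difference could show there. The 8 highest were Ino80b, Garem2, Cacna1f, Ctrb1, Kcng2, Tubb2a-ps2, Utp14b and Slc22a2, between 2.30 and 3.13. All but Utp14b were at the floor in bulge of set 1, so their differences are lower bounds. Among the 8, Cacna1f, Ctrb1, Kcng2 and Slc22a2 were at the floor on the other 5 Het arrays. The 8 lowest were Igha, AI854703, Igkv8-30, Elk1, Tgm3, Gprc5b, Cacna2d1 and Khdrbs3, between -4.21 and -2.53. All but Cacna2d1, at 4.395, were at the floor in bulge of set 2, so for them too the size is a lower bound. Igha, the heavy chain gene of immunoglobulin A, was at the floor in bulge of set 2, against 8.59 in set 1, and Tgm3, a transglutaminase of hair and epidermis, was at the floor, against 7.02.

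In total keratinocytes, 34 genes were 2-fold higher (0.299%) and 51 lower (0.449%) with both other pairs under 0.5. With quantile normalization 60 were higher and 35 lower. No gene of 12749 passed the test between fractions with limma (0%), and 467 had p under 0.05 without adjustment. The highest were Snai3, Dok1, Hic1, Adamts3, Ap5b1, Fancd2, Nqo2 and AA388235, between 1.51 and 2.46, and the lowest were Cyp26b1, Olfm1, Hlx, Sorcs3, Chat, Ptprm, Rpl39 and Ckm, between -2.17 and -1.69. Snai3, Dok1 and Hic1 were at the floor in total keratinocytes of set 1, and Hlx in those of set 2, so their sizes are lower bounds. Cyp26b1, which degrades retinoic acid, had 5.55, 9.35 and 6.02 in hair germ, bulge and total keratinocytes of set 2, against 5.35, 9.72 and 8.19 in set 1.

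In 155 genes at least 2 fractions differed 2-fold in opposite directions, and in 76 of these hair germ was lower and bulge higher in set 2. Immediate early genes, which cells switch on within minutes of a stimulus and also during dissociation of tissue, had medians of -1.08 in hair germ, 1.29 in bulge and -0.60 in total keratinocytes over 18 genes tested. Fosb had log2 signals of 6.42, 11.06 and 8.13 in hair germ, bulge and total keratinocytes of set 2, against 10.63, 7.97 and 9.89 in set 1. Set 2 was lower in hair germ and total keratinocytes and higher in bulge. Dusp1, a phosphatase gene, had 10.69, 15 and 13.51 in set 2, against 13.92, 13.67 and 13.86 in set 1, and its hair germ difference departed from the others by -3.73 (SE 0.55, adjusted p = 0.0404 with limma). For Fos the departure was -3.04 (adjusted p = 0.043). These were the 2 genes of the list past that test.

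**Figure D4:**
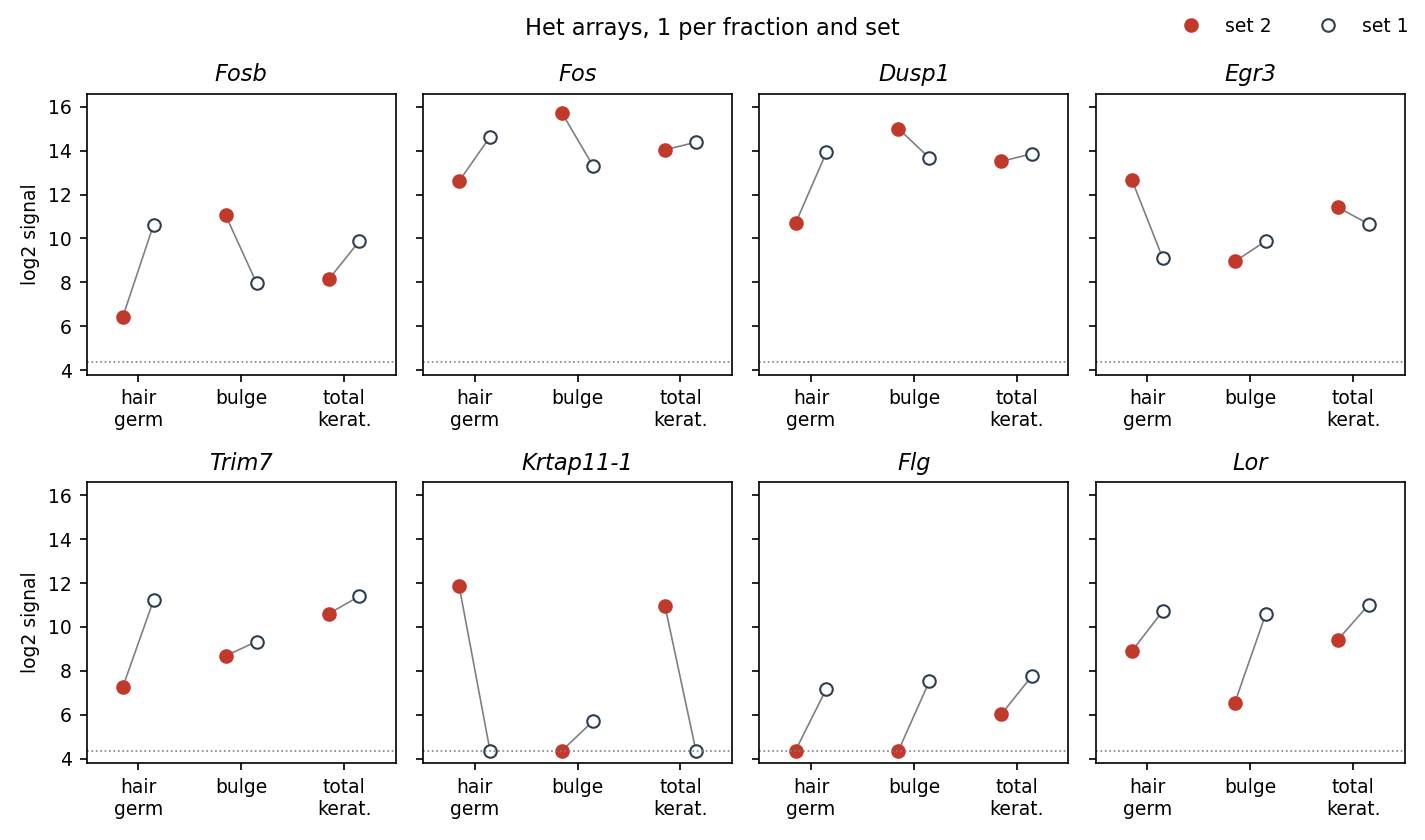
Log2 signal of 8 genes on the 6 Het arrays, with filled points for set 2 and open points for set 1 in each fraction. Lines join the arrays of a pair, and the dotted line is the floor of 4.37. Fosb, Fos and Dusp1 lie lower in hair germ and higher in bulge of set 2, Krtap11-1 is high only in hair germ and total keratinocytes of set 2, and Flg and Lor lie lower in each fraction.

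Cytosolic ribosomal protein genes differed as a block: all 17 tested were lower in hair germ of set 2, and all 17 were higher in bulge and in total keratinocytes, with medians of -0.70, 0.37 and 0.29. Over all genes tested the medians were -0.13, -0.03 and -0.04. No share of all genes with these signs stands beside the counts, so they are a description. With quantile normalization the medians of the 17 genes were 0.01, 0.04 and 0.05. The hair germ sign and the size in all 3 fractions therefore depend on the scaling. Of 16 circadian clock genes tested, 7 were lower in each fraction, with medians of -1.47, -0.10 and -0.47, and of 14 glucocorticoid response genes 9 were, with medians of -1.08, -0.23 and -0.58, beside 26.5% of all genes tested. None of either list passed the test. The glucocorticoid target gene Zbtb16 differed by -2.75, -0.77 and -2.01 (adjusted p = 0.0863 with limma) and the clock gene Per3 by -2.06, -0.42 and -0.93.

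Of 15 TGF-beta receptor and Smad genes tested, 8 were lower in each fraction, beside 26.5% of all genes tested, and none passed the test, with medians of -0.02, -0.33 and -0.27. Tgfbr3, the co-receptor betaglycan, differed by -2.01, -1.66 and -1.09 (adjusted p = 0.0586 with limma). The median of 18 TGF-beta response genes was -0.50, 0.00 and -0.25.

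Over 23 bulge stem cell genes tested the median was -0.87 in hair germ, 0.12 in bulge and -0.34 in total keratinocytes, and none passed the test. In hair germ 15 were lower and 8 higher, in bulge 9 lower and 14 higher, and in total keratinocytes 17 lower and 6 higher. With quantile normalization the bulge median was -0.06. Foxc1, which keeps bulge cells at rest, differed by -1.91, -0.53 and -0.93, and Nfatc1, with the same known role, by -2.17, -0.25 and -0.83. Markers of other cells differed between the sets too. The median was -1.77 in hair germ, -0.60 in bulge and -0.33 in total keratinocytes for 7 Langerhans cell genes tested. For 8 T cell genes it was -2.20, -0.24 and 0.60, and for 12 fibroblast genes -0.56, -0.35 and -0.77. Of the 12 fibroblast genes 5 were lower in each fraction, of the 7 Langerhans cell genes 5 and of the 8 T cell genes 2, and none passed the test. Of all genes tested, 26.5% were lower in each fraction. The largest median was in bulge for 11 melanocyte genes, at -0.83, -1.05 and 0.01, and for 7 dermal papilla genes, at -0.55, -1.09 and -0.46. The summed signal of the T cell list was 1440, 4160 and 4260 in hair germ, bulge and total keratinocytes of set 2, against 4120, 4780 and 2830 in set 1. For the fibroblast list it was 31300, 137000 and 20900 in set 2, against 17500, 173000 and 30300 in set 1, with the bulge the highest in both sets. For the Langerhans cell list it was 8390, 16800 and 12100 in set 2, against 13900, 23200 and 15300 in set 1. No defining marker checked, Cd3e, Cd207 or Col1a2, was at the floor on any of the 6 arrays, and Cd3e was lowest in hair germ of set 2, at 5.76, against 7.96 in hair germ of set 1. In such sorted pools fewer cells of a type and less RNA per cell cannot be told apart, and the part of these markers in the other results was not tested.

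The same contrast was then set beside the cKO arrays, from mice of the same sex, age and strain mix, where the labels call hair germ and bulge of set 2 aberrantly quiescent and those of set 1 quiescent. Of the 23 genes, 14 differed the same way in all 3 cKO fractions, 7 of the rises and 7 of the falls, and 6 of the 23 were 2-fold apart the same way in all 3. Of the genes 2-fold apart in each Het fraction, 28 of 56 higher and 57 of 117 lower ones differed the same way in all 3 cKO fractions. These 2-fold genes include the 23. Over all genes tested, 33.3% of the 2365 higher in each Het fraction were higher in all 3 cKO fractions too. Of the 3160 lower ones, 37.3% were lower there too. No such share stands beside the 6 of 23, which are a description. Krt25 differed by 5.09, 6.00 and 5.68 in hair germ, bulge and total keratinocytes of cKO and Gjb2 by 2.62, 3.41 and 3.38. Cdca5 had 0.44, -0.33 and 0.09. For the mean over fractions, the mitosis list had a median of 1.31 in Het, against 0.26 in cKO, and the hair shaft list 3.30 in Het, against 1.63 in cKO. The difference between the genotypes was tested gene by gene.

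Of 12749 genes, the Het set difference was lower than that of cKO for 4 (0.0314%) and higher for none, with 869 at p under 0.05 without adjustment in limma. They were H2-Ea at -8.22 (SE 0.93), Zfp874a at -5.01 (SE 0.53), Hamp2 at -2.80 (SE 0.34) and Cyp2g1 at -2.02 (SE 0.23), with adjusted p between 0.0168 and 0.0193. Without the filter on low signals none passed, and without the arrays of any 1 fraction at most 1 did. Zfp874a, a zinc finger gene, had log2 signals of 7.10, 6.57 and 5.67 in hair germ, bulge and total keratinocytes of Het set 2, against 8.49, 7.89 and 8.08 in Het set 1. In cKO it had 8.13, 8.31 and 7.32 in set 2, against 4.88, 4.58 and 4.37 in set 1. For this gene the sets moved in opposite directions in the genotypes. H2-Ea had 8.70, 7.32 and 4.37 in cKO set 2, against 4.37, 5.24 and 4.37 in cKO set 1, so the set with signal differed between genotypes and total keratinocytes of cKO were at the floor in both sets.

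**Figure D5:**
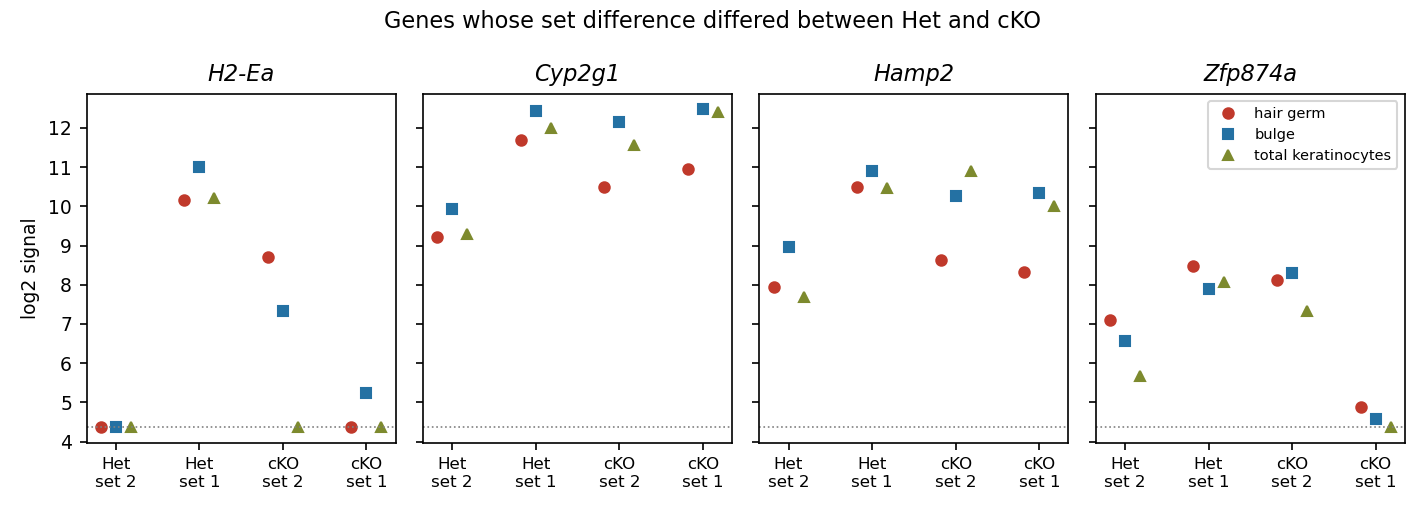
Log2 signal of H2-Ea, Cyp2g1, Hamp2 and Zfp874a on all 12 arrays, by genotype and set, with 1 point per fraction and the floor of 4.37 as a dotted line. H2-Ea is at the floor on the 3 arrays of Het set 2 and between 10.17 and 11.01 on those of Het set 1.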

How the data were processed

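Values deposited by the authors were MAS5 signal intensity on a linear scale, 1 column per array. The tool was MAS5, of unstated version, per the submitters' processing notes. RNA was taken in Trizol and labelled from 2 µg of total RNA, per the labels' protocols. With the top and bottom 2% of probe sets removed, every array averaged 500. No normalization was added.

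Of 45101 probe sets, 64 controls were left out, and 34945 of the rest had 1 gene symbol. The probe set of highest mean log2 signal per gene gave 18193 genes. Signals below the pooled 25th percentile (20.7) were set to it before the log2. Two-sided tests came from limma 3.58.1 in R 4.3.3, by eBayes with a trend after lmFit, p-values were adjusted by Benjamini-Hochberg, and 0.05 was the threshold. The Het set difference was fitted on 6 arrays with fraction as a block, leaving 2 residual degrees of freedom. The difference of 1 fraction from the other 2 used 12 arrays, as did the difference between genotypes. The number of arrays limits the precision. The fits were checked on simulated data.

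Genes were named by a rule: the sort markers and Tgfbr2, up to 12 rises and 12 falls past the threshold, 8 further genes 2-fold in all 3 fractions where fewer than 12 passed, 8 genes limited to each fraction per direction, and up to 4 members of each list described. Other genes named, those of the tests between fractions among them, were chosen after their values were seen. Members and gene lists were chosen with earlier results of these data known. Alternatives were quantile normalization, no floor or a higher one, no filter or a stricter one, the mean of probe sets, eBayes without trend, no block, all 12 arrays, other fold limits, and leaving out each pair in turn.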

Additional observations from a re-analysis of the deposited data

Results flagged for a closer look

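In hair germ the Het set difference was higher than the mean of the other fractions for 10 genes and lower for 56, by limma's test of the difference between fractions. In bulge it was lower for 1 gene, Krtap11-1. Among the Het arrays this gene exceeded the pooled median only in hair germ and total keratinocytes of set 2, so it had to depart in bulge. The hair germ array of set 2 had the lowest median signal of the 12, and the part of this in the 66 genes was not tested. For these genes the cKO hair germ difference had the same sign in 41 of 66 and was 2-fold in the same direction in 5 of 66. The error of the test came from the cKO arrays. A hair germ difference unlike that of the other cKO fractions enlarged it and made a call less likely. These counts are therefore not read as a difference between genotypes.

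The Het set difference departed from that of cKO by -8.22 for H2-Ea, -5.01 for Zfp874a, -2.80 for Hamp2 and -2.02 for Cyp2g1, by the test of the difference between genotypes. On average, set 2 minus set 1 was -6.09 for H2-Ea and -1.71 for Zfp874a in Het, against 2.14 and 3.31 in cKO. The value for H2-Ea rests on arrays at the floor in both genotypes.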

How the results depend on the processing

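The direction of the 23 genes past the test over 3 fractions did not turn under any alternative, in 272 checks, of which 110 kept the call and 162 lost it. Most of these checks could not turn it. Each of the 23 had the same sign in every fraction, so leaving out a pair kept the sign. The filter, trend, block and 12-array alternatives reuse the same signals. Only quantile normalization, the floor and the mean of probe sets changed the signals themselves. The cause of each change was not tested except where fewer genes or arrays were used. Against 23 genes, the fit gave 40 with quantile normalization (the 23 among them), 11 without a floor, 2 with a floor at the pooled median, 0 without a filter, 6 with a filter at the pooled 75th percentile (474), 0 with the mean of probe sets, 1 without a trend, 1 without the fraction block and 601 with all 12 arrays. In limma, 2412 genes had p under 0.05 without adjustment where the filter was left out, and 2125 with the mean of probe sets. Leaving out a pair gave between 1 (without total keratinocytes) and 102 (without bulge).

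The hair germ test, with 66 genes, gave 110 with quantile normalization, 189 with the stricter filter, and 0 with the higher floor, no filter, the mean of probe sets or no trend. The bulge test, with 1 gene, gave 0 with the higher floor, no filter, the stricter filter or no trend. The Het minus cKO test, with 4 genes, gave 2 with the stricter filter, 0 with the higher floor or no filter, 1 with the mean of probe sets or no trend, and between 0 and 1 without the arrays of 1 fraction.

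Of the 2-fold counts, 56 shared higher genes became 86 with quantile normalization, 17 with the stricter filter, 37 with the mean of probe sets and 8 at 4-fold. The 117 shared lower genes became 57, 70 with the higher floor, 33 with the stricter filter and 9 at 4-fold. Requiring only the 2 remaining pairs, an alternative added after the data were seen, gave between 83 and 305 higher and between 171 and 400 lower. Genes limited to 1 fraction became 561, 33 and 28 in hair germ, bulge and total keratinocytes with the stricter filter, 138, 54 and 7 at 4-fold, and 288, 58 and 25 with a limit of 0.25 for the other pairs, from 904, 169 and 85. Splits per fraction and list medians under quantile normalization were also added then. No paired analysis beyond the fraction block was possible because each group has 1 array.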
